A study of Arabidopsis thaliana with 16 samples.

Results

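Shoots of the hma2 hma4 double mutant of Arabidopsis thaliana were compared with wild-type shoots of the same age on Affymetrix ATH1 arrays, which read transcripts through sets of short probes (probe sets). The comparison held 4 of the 16 arrays of the series, namely the 2 arrays labelled as mutant shoots and the 2 labelled as wild-type shoots at 21 days, and it was described over 22746 probe sets, all of the 22810 on the array except the control probe sets. Seedlings of both genotypes grew for 7 days on control medium, were moved to vertical plates of control medium and grew for 14 more days, so that no plant of this comparison was deprived of Zn in its medium. Roots of both genotypes were measured in the same experiment, with 2 arrays each, and the remaining 8 arrays came from 7-week wild-type plants in hydroponic culture, of which the control and Zn-deficient shoots are set beside the mutant below. Those plants had 4 weeks of control medium and then 3 weeks of control or Zn-deficient medium. The labels name neither the mutant alleles nor the accession, and they are silent on whether a replicate is a separate batch of plants. Every p-value therefore measures the spread between arrays alone, which may be technical. In the main fits that spread was estimated from shoot and root arrays together.

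HMA2 and HMA4 are P-type ATPases that pump Zn out of cells around the root vascular tissue into the xylem, and plants that lack both hold Zn in the root and receive little of it in the shoot. Arabidopsis senses low Zn through the transcription factors bZIP19 and bZIP23, which switch on genes of ZIP transporters and of nicotianamine synthesis. A shoot short of Zn is also known for poor growth and pale leaves, since Zn is a cofactor of many enzymes and of zinc finger proteins. The question of the comparison, as far as the labels state it, was how the shoot transcriptome differed between the genotypes on the same medium.

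The most marked change among named genes in mutant shoots was a rise of AT1G20380, a prolyl oligopeptidase-like peptidase gene, and of ZIP9, a membrane transporter of the ZIP family that is known to be switched on by Zn deficiency. Genes of the cell wall moved in both directions: XTH33, PMEPCRF and TBL38 rose and EXPB2 fell. None of these cell wall genes passed when the shoot arrays were fitted alone. STZ, a C2H2 zinc finger repressor of stress responses, and AT1G04770, a tetratricopeptide repeat protein, both fell. Those nuclear genes of photosynthesis and chlorophyll synthesis that could be read by name had log2 changes close to 0. Transcripts of HMA2 and HMA4 themselves were not analysed here, because the annotation used gives neither name to a probe set, so the genotypes are taken from the labels alone.

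With limma, 51 of 17059 tested probe sets (0.299%) had an adjusted p under 0.05 in mutant shoots, 32 higher (0.188%) and 19 lower (0.111%). Of these, 26 were paired with a single gene, 18 higher and 8 lower, and 25 were not and stay unnamed. At an unadjusted p under 0.05 there were 1638 probe sets, 775 higher and 863 lower. All log2 changes are on the log2(signal + 8) scale, and the median over all tested probe sets was -0.04, with a median SE of 0.200. The count depended on single arrays: leaving out wild-type replicate 1 gave 15 and leaving out wild-type replicate 2 gave 49, while 152 and 179 passed when mutant replicate 1 or 2 was dropped. The balance of directions rested on mutant replicate 2, since without it 55 were higher and 124 lower, against 91 and 61 without mutant replicate 1. Of the 26 named genes, 3 passed in all 4 of these fits, namely AT1G20380, AT2G19970 and AT5G27920, 3 passed in 3 fits (AT3G50400, AT2G30930 and EXPB2), 15 in 2 and 5 in 1, and none changed sign. These fits kept the root arrays in the estimate of spread. With the 4 shoot arrays alone, AT1G20380, AT5G27920, AT2G30930, AT4G32800, AT5G44020 and STZ passed of the 26 named genes. The others did not pass or were not tested there, AT2G19970 (limma adjusted p = 0.315), AT3G50400 and EXPB2 among them. The 2 arrays of a genotype did not overlap with those of the other in any of the 51 probe sets, which was also the case for 36.8% of all tested probe sets.

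**Figure D1:**
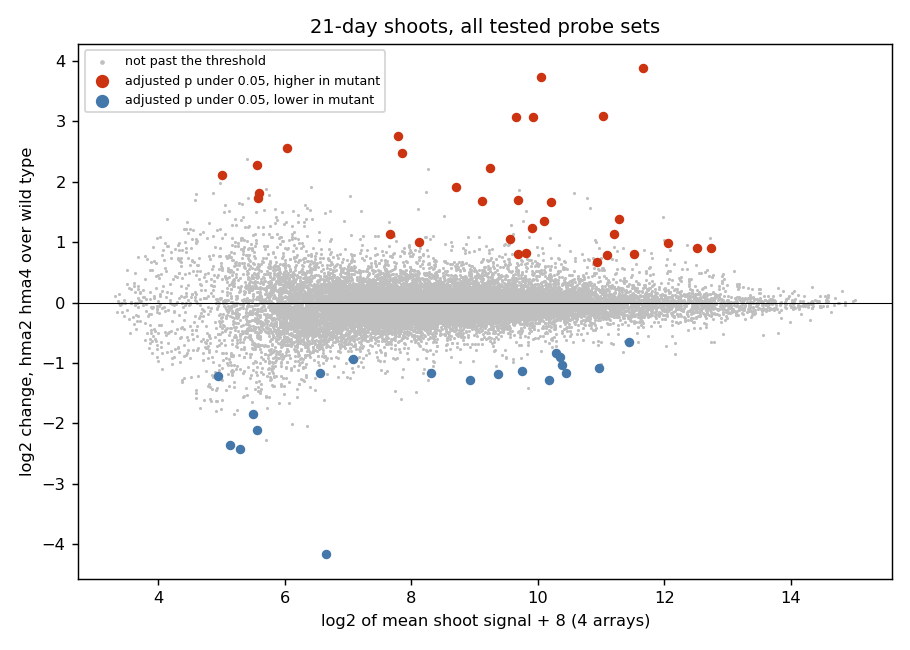
Log2 change between hma2 hma4 and wild-type shoots (y axis) against the log2 of the mean shoot signal plus 8 (x axis) for 17059 probe sets, each a point. The 32 red points (higher) and 19 blue points (lower) had a limma adjusted p under 0.05, and the largest rise and the largest fall among them are 3.88 and -4.17.

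The arrays themselves were alike in most respects. Median signals were 170.3 to 182 on the 4 shoot arrays, and replicates correlated across probe sets with r = 0.976 in the wild type and 0.971 in the mutant, against 0.966 to 0.975 between arrays of different genotype. The control probe set for 25S ribosomal RNA read 6920 and 6087 on the wild-type shoot arrays and 4240 and 1613 on the mutant ones, so it was lower in the mutant, with the lowest value on mutant replicate 2; its part in the results was not tested. The 3' to 5' signal ratio of GAPDH lay between 2.51 and 2.90 on these arrays and that of actin between 17.3 and 25.6, both with overlapping genotypes, and the lowest actin ratio on mutant replicate 1. The tissue label fitted the markers: LHCB4.1, a light-harvesting protein of photosystem II, had signals of 21610 to 26650 on the 4 shoot arrays, and 173 probe sets that were above 1000 in roots and below 60 in shoots of the 7-week control plants had median signals of 39.7 to 58.1 in 21-day shoots against 1067 to 1263 in 21-day roots. The sum of these root signals was 12130 and 14630 in wild-type shoots and 11850 and 11330 in mutant shoots, so neither mutant array held more of them. Of the 165 tested, 57 had positive and 108 negative log2 changes in mutant shoots, with a median of -0.21, and 1 passed, AT5G10130, which fell. Of all tested probe sets 44.4% were positive. Of the 3 tested root markers, EXPA7, EXPA18 and PYK10, none passed, with log2 changes from -0.62 to 0.17. The pollen and seed storage lists had no tested gene.

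AT1G20380 read 187 and 213 on the wild-type arrays and 1890 and 1583 on the mutant arrays. Both mutant values lay far above both wild-type values, and the spread within each genotype was small. The mean rose from 199.6 ± 18.3 (SD, n = 2) to 1737 ± 217. This was a log2 change of 3.07 (SE 0.16, adjusted p = 1.03e-05 with limma), and the call held whichever of the 4 shoot arrays was dropped, as well as in all 11 other settings tried.

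ZIP9 read 58.7 and 32.6 in wild-type shoots and 554 and 212 in mutant shoots. The mutant arrays were both higher but far apart, and 1 of the wild-type arrays was under 52.2, the highest signal of the 3 Trpn control probe sets over the 16 arrays and the level taken as background here. The log2 change was 2.76 (SE 0.43, limma adjusted p = 0.0313), it lay between 2.08 and 3.44 with 1 shoot array left out, and it passed in 1 of those 4 fits. The other tested metal transporters and sensors on named probe sets did not pass. MTPA1 and NRAMP5, below background in shoots of both genotypes, were too dim to be tested. Few could be read by name: of 11 listed genes known for the Zn deficiency response only 1, ZIP9, had a named probe set. Of 8 other listed ZIP genes 1 had a named probe set. ZIP6, another ZIP transporter, read 119 and 121.8 in the wild type and 73.5 and 138 in the mutant, so its groups overlapped.

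bZIP19, one of the Zn-sensing transcription factors, read 548 and 566 in the wild type and 591 and 512 in the mutant, with overlapping groups and a log2 change of -0.02 (SE 0.13). BZIP24, a related factor of the same group that is known for salt responses, had a log2 change of -0.24 (SE 0.33). The 2 tested cation diffusion facilitators were slightly positive without passing: MTP11, a manganese transporter, at 0.25 (SE 0.15) and AT2G04620 at 0.40 (SE 0.22). MT1C, a metallothionein, had a log2 change of -0.04 (SE 0.15). No gene of nicotianamine synthesis, of the yellow stripe-like family or of the HMA pumps had a tested probe set with that single name.

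Iron deficiency genes did not pass in either direction. Of the 7 tested, 3 had positive and 4 had negative log2 changes, with a median of -0.11. PYE, a bHLH repressor of the iron response, read 183 and 165 in the wild type and 122.5 and 109 in the mutant, and bHLH121, an activator of that response, read 669 and 650 against 849 and 920. In both genes the genotypes did not overlap, as in 36.8% of all tested probe sets, and the limma adjusted p was 0.437 and 0.343. CCS, the copper chaperone of the Cu/Zn superoxide dismutases, read 754 and 874 in the wild type and 1179 and 1501 in the mutant. Its mutant arrays were both higher, at a log2 change of 0.71 (SE 0.14), which missed the threshold with a limma adjusted p of 0.0876.

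The rises were not limited to genes of metal transport. AT5G27920, an F-box protein gene, read 265 and 249 in wild-type shoots and 804 and 878 in mutant shoots, which gave a log2 change of 1.68 with an SE of 0.13. Its limma adjusted p was 0.000291, and it passed whichever shoot array was dropped. AT2G19970, of the CAP family to which pathogenesis-related protein PR-1 belongs, read 9.14 and 7.20 in the wild type and 74.3 and 67.1 in the mutant. The wild-type values were below background, so the rise was at least 1.35-fold, and the limma adjusted p was 0.00102. With the 4 shoot arrays alone it did not pass (limma adjusted p = 0.315), and it passed in 9 of the 11 other settings. AT4G32800, a transcription factor of the AP2/ERF family, read 127 and 212 in the wild type and 527 and 778 in the mutant, a log2 change of 1.91 (SE 0.30, adjusted p = 0.0326 with limma).

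AT4G16563, an aspartyl protease, read 138 and 253 in wild-type shoots and 582 and 1420 in mutant shoots. The groups did not overlap, but the 2 arrays of each genotype lay far apart, and the log2 change of 2.23 (SE 0.37, adjusted p = 0.0385 with limma) passed in 2 of the 4 fits with 1 shoot array left out. AT2G30930 read 1322 and 1613 against 2893 and 3603 in the mutant, a log2 change of 1.14 (SE 0.14). Both mutant arrays lay above both wild-type arrays, and the limma adjusted p was 0.0111.

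Several rises were small. The acid phosphatase genes AT5G44020 and AT1G04040, both of the HAD superfamily, rose by 0.89 (SE 0.11) and 0.79 (SE 0.12) on the log2 scale, from 4103 ± 75.7 to 7639 ± 445 (SD, n = 2) and from 1603 ± 134 to 2773 ± 196. AT2G36410 rose from 482.3 ± 25.8 to 1010 ± 153 and AT5G46230 from 178.2 ± 22.7 to 362.5 ± 17.8. The limma adjusted p of these 4 lay between 0.0114 for AT5G44020 and 0.04995 for AT2G36410, and each had 2 wild-type arrays below 2 mutant arrays. With the shoot arrays alone AT5G44020 passed (limma adjusted p = 0.0441). AT2G36410 (0.0637), AT1G04040 (0.105) and AT5G46230 (0.156) did not pass in that fit. AT1G47480, an alpha/beta hydrolase, had the same adjusted p of 0.04995, the highest of those that passed, and AT4G30470 with 0.0606 and a log2 change of 0.78 was the nearest named gene outside.

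The remaining rises were dim in wild-type shoots. AT3G05170, of the phosphoglycerate mutase family, read 11.5 and 10.8 in the wild type and 98.8 and 111 in the mutant, at least 2.00-fold higher (log2 change 2.56, SE 0.38, limma adjusted p = 0.0293). AT3G50400, a GDSL lipase, rose at least 1.27-fold and AT1G47480 at least 1.23-fold by the same reading. AT5G22555 had a log2 change of 2.11 but lay below background in both genotypes, at 4.20 ± 2.37 and 44.1 ± 4.68 (SD, n = 2), so no fold is given.

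**Figure D2:**
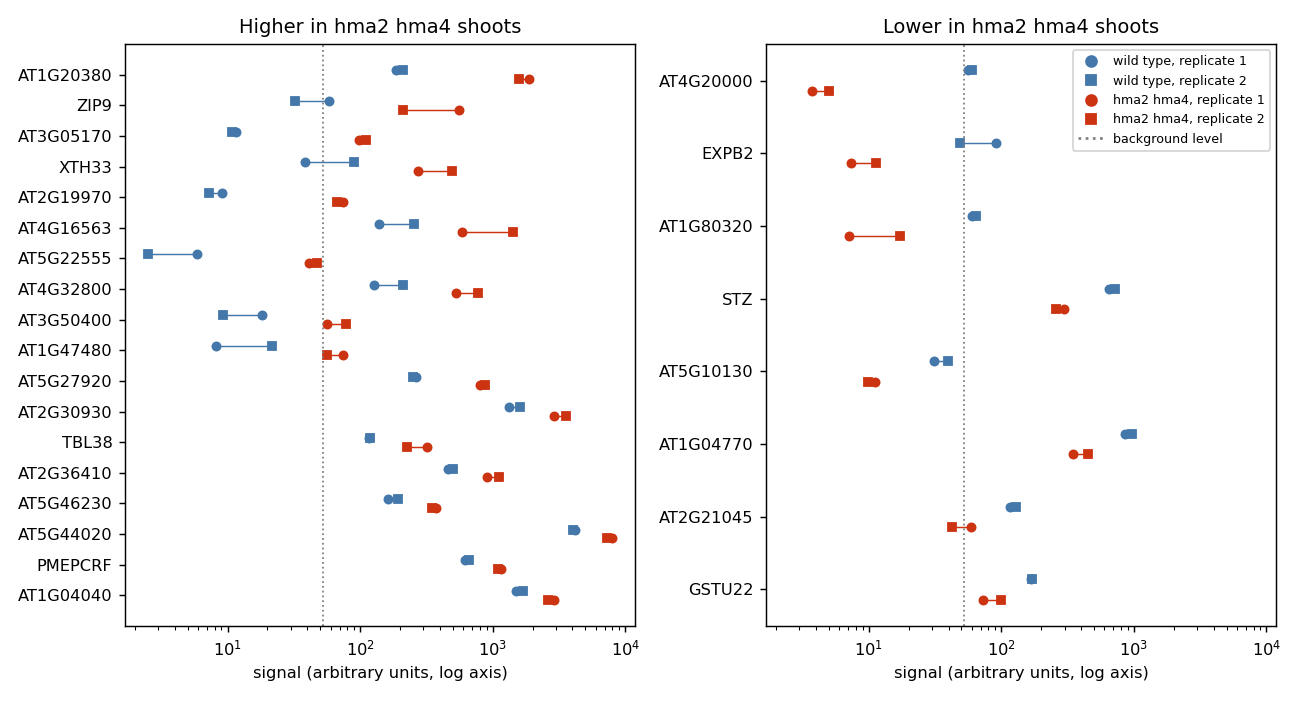
Signal on each shoot array (x axis, log scale, arbitrary units) of the 26 named genes past the limma threshold, 18 higher (left) and 8 lower (right) in hma2 hma4, with circles for replicate 1 and squares for replicate 2, and a line joining the 2 arrays of a genotype. The dotted line is the background level of 52.2, and ZIP9, XTH33 and AT4G16563 show the wide gap between replicates given in the text.

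The 8 named genes that fell were fewer than the 18 that rose, a balance that turned over all calls without mutant replicate 2 (55 higher, 124 lower). STZ read 644 and 726 in wild-type shoots and 298 and 258 in mutant shoots, a log2 change of -1.28 (SE 0.19, adjusted p = 0.0313 with limma). AT1G04770 read 850.3 and 965 in the wild type and 346 and 453 in the mutant, a log2 change of -1.18 (SE 0.16, adjusted p = 0.0147). In both genes the mutant arrays lay well below the wild-type arrays. They were the falls among named genes with a wild-type mean above the median signal of 184.

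The other 6 falls began from low shoot signals. GSTU22, a tau-class glutathione transferase, fell from 168.2 ± 1.69 (SD, n = 2) to 85.6 ± 18.9 and AT2G21045 from 122.9 ± 9.86 to 50.5 ± 11.6. EXPB2, a beta-expansin, read 90.7 and 48.6 in the wild type and 7.30 and 11.4 in the mutant, at least 1.27-fold lower, with a limma adjusted p of 0.0111. AT1G80320, a 2-oxoglutarate-dependent oxygenase, was at least 1.19-fold lower and AT4G20000 at least 1.12-fold lower, both with mutant arrays below background. AT5G10130, of the Ole e 1 family, had a log2 change of -1.21 and was below background in both genotypes. In wild-type roots 6 of these 8 genes that fell read more than 2 times their shoot signal, as did 11 of the 18 that rose and 22.1% of all tested probe sets. Over all called probe sets, unnamed ones included, the same held for 7 of 19 lower (36.8%) and 18 of 32 higher (56.2%). Root arrays entered both the filter and the estimate of spread, so the fit itself can favour genes bright in roots. These shares therefore cannot be read as a trait of the genes that changed. With the 4 shoot arrays alone GSTU22, AT2G21045 and EXPB2 did not pass, and AT5G10130, AT1G80320 and AT4G20000 were not tested. The root-bright probe sets as a set were also lower in mutant shoots, with a median log2 change of -0.21 and 57 of 165 positive. Over all tested probe sets the median was -0.04 and 44.4% were positive. The root-bright set had its highest sum on wild-type replicate 2, and its part in the falls was not tested.

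Cell wall genes were read list by list, beside 0.188% of all tested probe sets called higher and 0.111% called lower. Of 7 tested xyloglucan endotransglucosylase/hydrolases, which cut and rejoin the xyloglucan that tethers cellulose, 1 rose and none fell, and 3 had positive and 4 negative log2 changes. XTH33 read 38.7 and 89.9 in the wild type and 272 and 497 in the mutant, a log2 change of 2.48 (SE 0.37, adjusted p = 0.0293 with limma). With the shoot arrays alone XTH33 did not pass (limma adjusted p = 0.0593). XTH16 read 411 and 561 against 725 and 1211, at a log2 change of 0.95 (SE 0.23) that missed the threshold with an adjusted p of 0.135. In both genes replicate 2 read higher than replicate 1 in each genotype, as it did in 25.7% of all tested probe sets.

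Of 15 tested expansins, which loosen walls without cutting them, EXPB2 fell and no other passed, and 7 were positive and 8 negative with a median of -0.05. EXLA1, an expansin-like protein, had the highest log2 change of the family, 1.81 (SE 0.54), and did not pass (limma adjusted p = 0.240). It read 305 and 1106 in the wild type and 1244 and 3422 in the mutant, so replicate 2 stood far above replicate 1 in both genotypes. EXLA2 had the same order of arrays, with 96.9 and 229 against 187 and 449.

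All 4 tested pectin methylesterase genes had positive log2 changes, with a median of 0.73, and 1 passed. PMEPCRF read 616 and 666 in wild-type shoots and 1164 and 1106 in mutant shoots, a log2 change of 0.82 (SE 0.12, adjusted p = 0.0293 with limma). With the shoot arrays alone PMEPCRF did not pass (limma adjusted p = 0.11). ATPMEPCRB read 233 and 246 against 404 and 562, a larger log2 change of 0.97 (SE 0.19) that missed the threshold with an adjusted p of 0.0751. Both genes had even wild-type arrays well below the mutant ones. PME61 had a log2 change of 0.64 (SE 0.30) and ATPMEPCRD of 0.10 (SE 0.32).

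TBL genes encode the trichome birefringence-like family, members of which add acetyl groups to wall polysaccharides. Of 19 tested, 12 were positive and 7 negative, with a median of 0.06, and TBL38 alone passed. TBL38 read 117 and 119 in the wild type and 319 and 227 in the mutant, a log2 change of 1.14 (SE 0.18, adjusted p = 0.0313 with limma). With the shoot arrays alone TBL38 did not pass (limma adjusted p = 0.197). Of 6 tested cellulose synthase-like genes, 4 were positive, and CSLC04, a xyloglucan glucan synthase, had the highest log2 change, 0.57 (SE 0.19, adjusted p = 0.332).

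The nuclear photosynthesis genes that were tested stood close to 0 and none passed, but most listed ones had no tested probe set by name. The 3 tested of 13 listed light-harvesting genes had log2 changes from -0.12 to 0.04. The 4 tested of 16 nuclear photosystem subunits ran from -0.03 to 0.03, and the 3 tested of 20 Calvin cycle genes from -0.02 to 0.04. RCA, the activase of Rubisco, read 19470 and 18770 in the wild type and 21280 and 16710 in the mutant, with overlapping genotypes. The 8 tested of 20 listed chlorophyll synthesis genes ran from -0.19 for HEME2 to 0.05 for GSA1. Their median was -0.04, which is also the median of all tested probe sets.

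Genes carried by the plastid genome were read by function. The 20 photosystem genes had a median log2 change of -0.03, with 9 positive and 11 negative, and ran from -0.55 for psaI to 0.17. The 9 tested genes of the NDH complex ran from -0.43 for ndhD to 0.52 for ndhK, and none of either list passed. The 21 genes of plastid transcription, translation and protein turnover had a median of -0.26, with 2 positive and 19 negative, and none passed, although 6 had an unadjusted p under 0.05. Of all tested probe sets 44.4% were positive. clpP, a subunit of the plastid protease, read 4514 and 6839 in wild-type shoots and 3731 and 3250 in mutant shoots. rps18, a ribosomal protein, read 3862 and 4328 against 2756 and 2776. These 2 genes did not overlap between genotypes, at log2 changes of -0.67 (SE 0.20) and -0.56 (SE 0.16) and limma adjusted p of 0.238 and 0.231. Groups without overlap were found in 36.8% of all tested probe sets. The median of the 21 was -0.03 without mutant replicate 1, so it rested on that array. Their place beside the lower 25S ribosomal RNA signal of the mutant arrays was not tested.

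**Figure D3:**
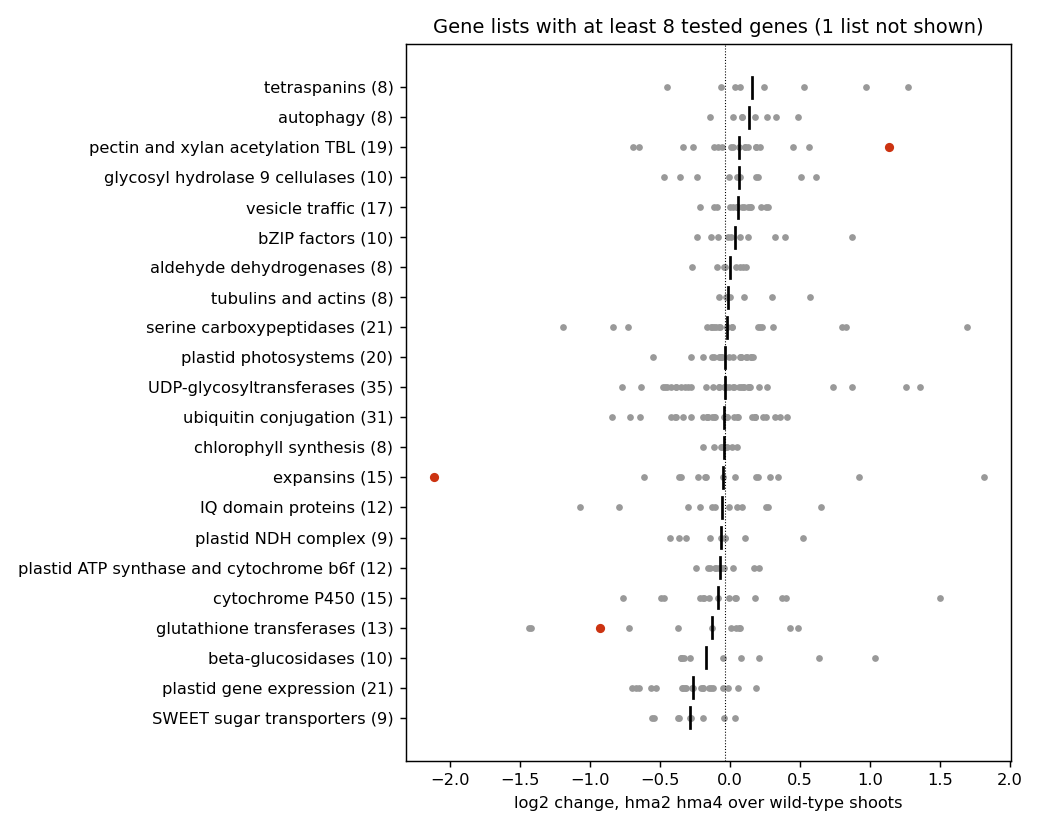
Log2 change in hma2 hma4 shoots (x axis) of each tested gene (points) in the lists with at least 8 tested genes except 1 that is not shown (rows, number tested in brackets), with a bar at each list's median and red points for genes past the limma threshold. The dotted line is the median of all tested probe sets, -0.04, and the medians of the lists shown run from -0.28 for the SWEET sugar transporters to 0.16 for the tetraspanins.

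Among stress and senescence genes STZ alone passed, and it was the only tested gene of its list. Of 5 tested WRKY transcription factors, 2 were positive and 3 negative, and none passed. WRKY53, a regulator of leaf senescence, read 372 and 479 in the wild type and 206 and 137 in the mutant, a log2 change of -1.29 (SE 0.25) with a limma adjusted p of 0.0751. WRKY6 had a log2 change of -0.51 (SE 0.17, adjusted p = 0.317), and SAG101, a lipase-like gene of senescence, of 0.11 (SE 0.24).

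Of 13 tested glutathione transferases, which join glutathione to reactive compounds, GSTU22 fell and no other passed, with 6 positive, 7 negative and a median of -0.13. Besides GSTU22, 4 others that read lower had an unadjusted p under 0.05, namely GSTU23, ATGSTF13, GSTU25 and GSTU28. GSTU25 read 93.1 and 87.8 in wild-type shoots and 28.3 and 65.9 in mutant shoots (limma adjusted p = 0.214). Its groups did not overlap, as in 36.8% of all tested probe sets. GSTU20, a bright member, read 3883 and 3697 against 3923 and 3897, at a log2 change of 0.05.

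Further genes had a log2 change of at least 1 in size without overlap and without passing. Lack of overlap by itself held for 36.8% of all tested probe sets. EXO, the brassinosteroid-responsive gene EXORDIUM, read 1453 and 2922 in the wild type and 3862 and 7863 in the mutant, a log2 change of 1.42 (SE 0.33, adjusted p = 0.131 with limma). AT2G44500 (1.51), AT5G05600 (1.52), AT5G03120 (1.35) and AT1G22330 (1.33) were the others with a positive log2 change beside EXLA1. QQS, a gene known for its effect on starch content, read 862 and 879 against 439 and 391, a log2 change of -1.06 (SE 0.29, adjusted p = 0.203). The others with a negative value beside WRKY53 were AT2G17740 (-1.47), the TIR domain gene AT1G72920 (-1.13), the peroxidase gene AT5G64100 (-1.11) and AT3G22550 (-1.07), with adjusted p from 0.0751 to 0.377.

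The clock gene GI read 1444 and 1481 in the wild type and 929 and 1107 in the mutant, a log2 change of -0.52 (SE 0.13, adjusted p = 0.135 with limma). The time of day of harvest is not in the labels. SWEET sugar transporters had 8 negative and 1 positive log2 change, with a median of -0.28 and none past the threshold. Of all tested probe sets 44.4% were positive. SWEET11, which exports sucrose from leaf phloem parenchyma, overlapped between genotypes, at 4513 and 4143 against 3670 and 4804.

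In roots of the same experiment, 1 of 17059 probe sets (0.00586%) passed, and 629 had an unadjusted p under 0.05. The difference between the shoot and the root change, an interaction term of the same limma fit, passed for 8 probe sets (0.0469%), against 1027 at an unadjusted p under 0.05, and all 8 had also been called in shoots. AT1G20380 had a log2 change of 3.07 in shoots and -0.38 in roots, where it read 483 and 507 in the wild type and 346 and 415 in the mutant. The shoot change exceeded the root change by 3.45 (SE 0.22, limma adjusted p = 0.000111). AT2G19970 was bright in roots, with 3524 and 2857 in the wild type and 3006 and 2011 in the mutant, and its fitted shoot change exceeded its root change by 2.65 (adjusted p = 0.0103), a size that depends on wild-type shoot signals below background. AT5G27920 read 943 and 846 against 1090 and 1149 in roots, a root change of 0.32 that lay 1.36 below the shoot change (adjusted p = 0.0395).

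For ZIP9 the root signals were 86.6 and 67.5 in the wild type and 93.8 and 82.0 in the mutant. They overlapped, and the difference of 2.58 between its shoot and root changes did not pass (SE 0.60, limma adjusted p = 0.326). AT3G05170 was the exception, higher in mutant roots too, with 9.78 and 15.6 in the wild type and 229 and 315 in the mutant, at least 5.14-fold higher. It was also the probe set called in roots. Its wild type was below background in both tissues, so the fitted changes of 3.76 in roots and 2.56 in shoots are not measured sizes and were not compared. The other named genes called in shoots had root changes between -0.49 for EXPB2 and 0.54 for AT5G22555.

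**Figure D4:**
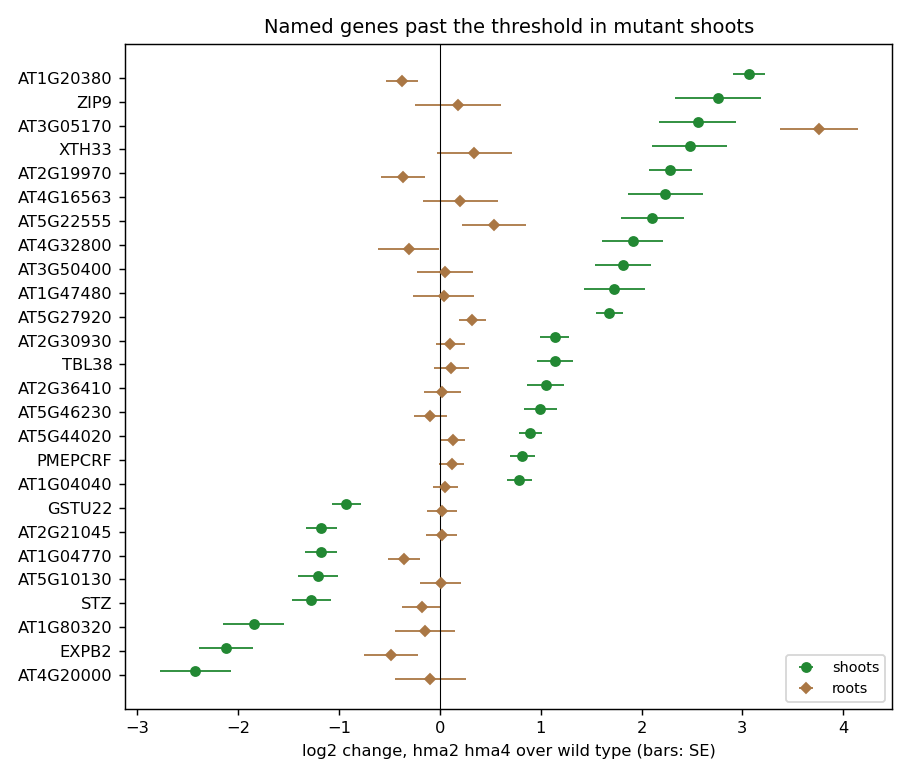
Log2 change between hma2 hma4 and wild type (x axis, bars are SE of the limma fit) in shoots (green circles) and roots (brown diamonds) for the 26 named genes past the threshold in shoots. The root values lie between -0.49 and 0.54 for all genes but AT3G05170, whose fitted root change is 3.76 against a wild type below background.

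Of the unnamed probe sets, 259723_at, 260462_at and, narrowly, 248499_at (log2 change 3.09 against 3.07 for AT1G20380) had larger rises than any named gene. Probe set 259723_at read 457 and 344 in wild-type shoots and 7177 and 4898 in mutant shoots, a log2 change of 3.88 (SE 0.20, adjusted p = 1.03e-05 with limma). Probe set 260462_at read 157 and 118 against 2412 and 1515, a change of 3.73. Both had negative log2 changes in mutant roots, -0.76 and -0.92, which did not pass, and the interaction passed for both (adjusted p = 8.96e-05 and 0.000397). The largest fall was that of 253657_at, from 179 and 187 to 2.20 and 2.98, at least 3.50-fold lower (adjusted p = 0.00802). In roots it read 161 and 166 in the wild type and 33.4 and 6.71 in the mutant, a change that did not pass (adjusted p = 0.293 with limma), and all 4 mutant arrays of either tissue were below background and all 4 wild-type arrays above it.

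The mutant was set beside 7-week wild-type shoots under Zn deficiency, an experiment that shares no array with it but differs in age and culture. There 157 probe sets passed (0.920%), 131 higher and 26 lower. Called in both were 6, which is 11.8% of the 51 mutant calls and 3.82% of the 157 Zn deficiency calls, and all 6 were higher in both. They were AT1G20380, ZIP9, the probe sets 259723_at and 260462_at and 2 further unnamed ones.

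AT1G20380 read 192 and 189 in control shoots and 7803 and 5248 in Zn-deficient shoots, a log2 change of 5.01 against 3.07 in the mutant. The mutant change minus the Zn deficiency change was -1.95, and this difference passed (limma adjusted p = 0.0125). ZIP9 read 134 and 109 in control shoots and 3512 and 4895 in Zn-deficient shoots, also a log2 change of 5.01. The same difference was -2.25 for ZIP9 and did not pass (adjusted p = 0.0759). In all 6 probe sets mutant replicate 1 read higher than mutant replicate 2, as did 45.8% of all tested probe sets.

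Beyond those 6, no call was shared. Of the 32 mutant rises, those 6 included, 15 had a positive Zn deficiency change, and of the 19 mutant falls, 8 had a negative one. Over all 16202 probe sets tested in both experiments 54.6% had the same sign. The log2 changes correlated across probe sets with r = 0.08, and with 0.05 without those 6, as a description of genes that are not independent. The 121 tested probe sets that rose under Zn deficiency, those 6 included, had a median log2 change of 0.18 in mutant shoots, with 83 positive and 38 negative. Their median stood 0.305 above the wild-type mean on mutant replicate 1 and 0.155 above it on replicate 2.

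Some single genes had opposite signs in the 2 conditions. XTH33 had a Zn deficiency change of -2.38, without passing, and its control arrays read 1695 and 121. WRKY53 read 199 and 613 in control shoots and 1181 and 1567 in Zn-deficient shoots. Its Zn deficiency change of 1.93 did not pass, but its mutant change minus its Zn deficiency change was -3.22, and that difference passed (limma adjusted p = 0.0304). CCS stood at -1.87 under Zn deficiency against 0.71 in the mutant, with control arrays of 2693 and 268 and neither value past the threshold. For AT4G20000, which read 8.18 and 21.3 in control shoots and 87.0 and 159 in Zn-deficient shoots, the Zn deficiency change did not pass (limma adjusted p = 0.0876). The difference between its responses was negative and passed (limma adjusted p = 0.0125), but its size is not given because control shoots and mutant shoots were both below background. The difference between the responses passed for 99 of 17059 probe sets (0.580%), including AT3G05170 and AT1G04040, which were higher in the mutant response, AT1G04040 by 1.74. This count rests on single arrays, since it was 15 without wild-type replicate 1 and 776 without control replicate 2 of the 7-week shoots.

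**Figure D5:**
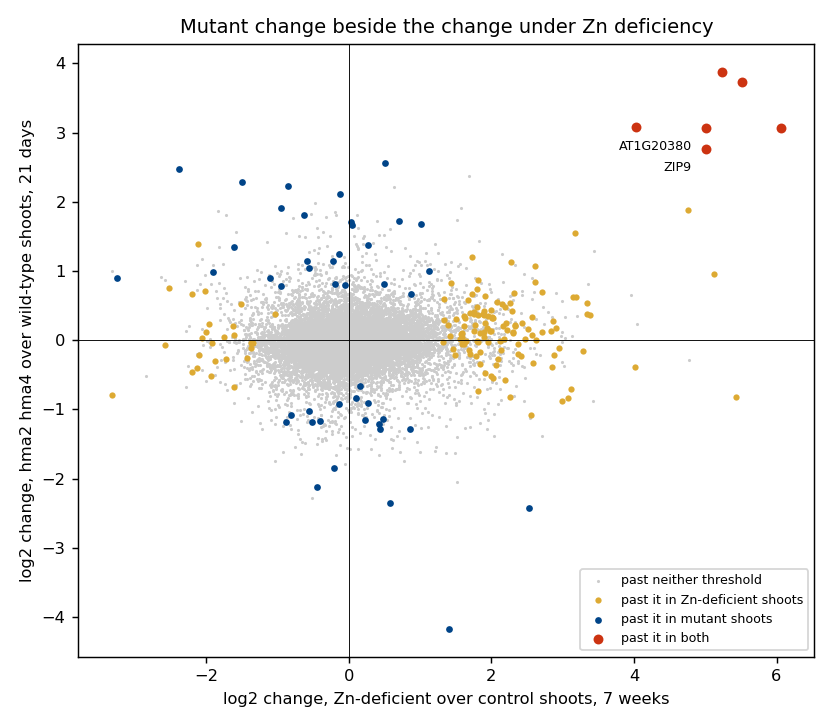
Log2 change in hma2 hma4 shoots at 21 days (y axis) against that in Zn-deficient shoots at 7 weeks (x axis) for 16202 probe sets tested in both experiments. The 6 red points passed the limma threshold in both and lie at the upper right, AT1G20380 and ZIP9 among them, while the blue points (mutant shoots only) lie on both sides of 0 on the x axis.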

How the data were processed

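The deposited table holds log2 signals of 16 arrays, which the authors computed with MAS5, per the submitters' processing notes; version and settings: not given in the sources used here. Each array has a mean of 500 after trimming 2% at either end, so a change in total RNA cannot be seen. The log2 values were turned back into signals, and 8 units (the 10th percentile) were added before log2 was taken again, which understates the change of dim genes.

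Control probe sets (64) and probe sets with a mean at or below the 25th percentile were left out. The mean was taken over all arrays of a fit, roots included, so genes dim in shoots could be tested through their root signal. AT5G22555, AT5G10130, AT1G80320 and AT4G20000 were not tested when the shoot arrays were fitted alone. The 8 arrays of the 21-day experiment were fitted as 4 group means with limma 3.58.1 in R 4.3.3 (eBayes, trend on intensity), with Benjamini-Hochberg adjustment over all tested probe sets and a threshold of 0.05. The Zn deficiency fit used the 8 arrays of the 7-week experiment, and the difference between the responses used all 16. Code was tested on simulated data. The number of arrays limits the precision.

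A group was below background where no array exceeded 52.2, the highest Trpn control signal, and a fold against it is "at least" the other group's geometric mean over that level. The platform annotation names 1 gene for 13513 probe sets and several for 503; of the former, 13436 matched RefSeq TAIR10.1, used for names only. Lists took 1 probe set a gene, that of highest mean signal.

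The comparison, the lists and the tests were chosen with earlier results of these data known, and list entries were revised for gene names after the table was seen. Of 86 lists, 64 had a tested gene; not all are described, and no gene of a list left undescribed passed the threshold. Named genes are those past the threshold with 1 gene, list members, the called interactions, the genes called in both experiments, and the 6 largest each way among genes with an unadjusted p under 0.05, a log2 change of at least 1 in size, no overlap and a brighter mean above the median signal of 184. AT4G30470 and the genes singled out for opposite signs were picked after their values were seen. Promoter and protein sequences were not analysed here, and the planned search for a promoter element was not run.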

Additional observations from a re-analysis of the deposited data

Results flagged for a closer look

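In 8 probe sets the mutant change differed between shoots and roots by the limma interaction test. The 3 with a single gene were AT1G20380, with a shoot change 3.45 above its root change on the log2 scale, AT2G19970 with 2.65, against wild-type shoots below background, and AT5G27920 with 1.36. Groups of 2 arrays are too small for a search for outlying samples.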

How the results depend on the processing

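The 51 probe sets called in mutant shoots became 19 with no filter, 12 by eBayes without a trend, 14 with all 16 arrays in 1 fit and 17 with the 4 shoot arrays alone; leaving out a replicate gave 15 to 179. The 8 interactions became 3 without a trend and 6 to 28 with a replicate left out. The 1 call in mutant roots became 4 with quantile normalization, 3 with median centring, 6 with the larger constant of 58, 0 with the 50th percentile filter and 0 to 6 with a replicate left out. The 157 calls under Zn deficiency became 100 with quantile normalization, 333 with the larger constant, 33 with no filter and 17 to 331 with a replicate left out. The 99 differences between the responses became 225 with the larger constant and 15 to 776 with a replicate left out. The replicate numbers were not taken to pair the arrays: the deviations of same-numbered arrays correlated at r = 0.00 between the shoot groups, 0.18 between the root groups, and between -0.02 and 0.13 across tissues. With the replicate number as a block the counts were 68 in mutant shoots, 8 interactions, 2 in mutant roots, 281 under Zn deficiency and 100 differences. The cause of these moves was not tested. Of the 381 values of the 26 named genes under alternatives, 241 kept their call, 140 lost it and 0 changed sign; 3 genes kept it whichever shoot array was left out and 2 in all 11 other settings. Median centring called 47 higher and 18 lower and moved the median of all tested probe sets from -0.04 to 0.02. Of 704 list medians under alternatives, 652 moved by less than the spread between replicates. The planned promoter search had no sequence to run on. Signals under 52.2 set what can be said of dim genes.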

Other observations

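No listed gene of autophagy, vesicle traffic, RALF-like peptides or tetraspanins passed the limma threshold in mutant shoots. Of 8 tested autophagy genes, which encode ATG proteins that enclose cell contents for breakdown, 7 had positive log2 changes and 1 a negative one, with a median of 0.13. ATG8G read 289 and 246 in the wild type and 423 and 337 in the mutant, a log2 change of 0.49 (SE 0.18). Of 17 vesicle traffic genes, 14 were positive, with a median of 0.06 and a highest value of 0.27 for VPS20.1. Among 7 RALF-like peptide genes, whose products are secreted growth regulators, RALFL22 read 546 and 859 against 1122 and 1523, a log2 change of 0.92 (SE 0.21, adjusted p = 0.109 with limma). TET10, of the tetraspanin membrane proteins, read 273 and 333 against 506 and 714, a log2 change of 0.98 (SE 0.21, adjusted p = 0.105 with limma). TET6 had the highest value of that list, 1.27 (SE 0.78), with overlapping genotypes at 3.47 and 115 against 84.0 and 81.8. For these lists the same share over all tested probe sets was 44.4% positive, with a median of -0.04.

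Nuclear and metabolic families were mixed. All 6 tested histone genes were negative, from -0.73 for HTR12, the centromeric histone H3, to -0.05 for HTB4. UDP-glycosyltransferases, which attach sugars to small molecules, had 15 positive and 20 negative members and a median of -0.04. Of 21 serine carboxypeptidase-like genes, 9 were positive and 12 negative. SCPL34 read 1090 and 1314 in the wild type and 1854 and 2348 in the mutant, a log2 change of 0.80 (SE 0.17) with a limma adjusted p of 0.0938. BGLU16, a beta-glucosidase, read 1099 and 943 against 1548 and 1632, a log2 change of 0.64 (SE 0.13, adjusted p = 0.0908 with limma).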
